A study of Drosophila melanogaster with 2 samples.

Results

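The genes described here are 9 named heat shock genes of Drosophila melanogaster, out of 13968 protein-coding genes in the annotation: Hsp22, Hsp23, Hsp26, Hsp27, Hsp67Bc, Hsp68, Hsp83, Hsc70-3 and Hsc70-4. They were listed by name, and each row of the authors' peak lists was assigned to a gene where its summit, the base of highest enrichment, lay inside the gene or within 1 kb of it. The study precipitated chromatin from whole embryos of mixed sex, 0 to 24 h old, of the strain Pum-MiMIC-GFP, in which an eGFP exon carried by a MiMIC insertion in an intron of pum makes a Pum-eGFP fusion, and it used an antibody against GFP. Both libraries, biological replicates numbered 2 and 3, belonged to 1 group, and the labels name no heat treatment or other agent. All embryonic tissues and stages were mixed, all values come from this insertion line, and a control precipitation was not analysed here, so the level at these genes in embryos lacking the fusion is not known. With 1 group and 2 libraries no groups were compared and no p-value was computed.

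Heat shock proteins are molecular chaperones that bind unfolded proteins. Small heat shock proteins such as Hsp26 and Hsp27 hold unfolded proteins without using ATP, members of the Hsp70 family such as Hsp68 and Hsc70-4 fold them in ATP-driven cycles with J-domain partners, and Hsp83, the Hsp90 of the fly, acts on nearly folded clients such as kinases and receptors. On heat stress the heat shock factor Hsf binds heat shock elements, arrays of the unit GAA in alternating orientation, at promoters that GAGA factor keeps open and at which RNA polymerase II already waits. Pumilio is known as an RNA-binding translational repressor.

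The stretches of DNA under the strongest summits are shown first, since their positions and motifs are referred to throughout. Coordinates are those of the dm6 build (Release 6) and are 1-based, and the bases come from the RefSeq copy of that assembly, read 5′ to 3′ on the strand of the gene. Capitals mark matches to a heat shock element pair (GAANNTTC or TTCNNGAA), to GAGAG or its reverse complement CTCTC, and to TATAAA or its reverse complement, and overlapping matches run together. The stretch at Hsp26 is chr3L:9377398-9377667 on the minus strand, and its last 6 bases are a TATA box. The stretch at Hsp27 is chr3L:9383777-9384076 on the plus strand, and that at Hsc70-4 is chr3R:15242392-15242691 on the plus strand. At Hsp83, whose summit lies in an annotated 5' UTR, only 30 bases around the heat shock element pair (chr3L:3193138-3193167) and 30 bases around the TATA box (chr3L:3193174-3193203) are given, both on the plus strand.
Hsp26: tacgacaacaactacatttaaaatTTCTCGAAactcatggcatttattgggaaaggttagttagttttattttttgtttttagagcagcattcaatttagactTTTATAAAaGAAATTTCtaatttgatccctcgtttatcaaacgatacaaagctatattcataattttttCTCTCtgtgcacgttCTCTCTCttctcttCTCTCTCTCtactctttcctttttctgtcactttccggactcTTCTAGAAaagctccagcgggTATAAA
Hsp27: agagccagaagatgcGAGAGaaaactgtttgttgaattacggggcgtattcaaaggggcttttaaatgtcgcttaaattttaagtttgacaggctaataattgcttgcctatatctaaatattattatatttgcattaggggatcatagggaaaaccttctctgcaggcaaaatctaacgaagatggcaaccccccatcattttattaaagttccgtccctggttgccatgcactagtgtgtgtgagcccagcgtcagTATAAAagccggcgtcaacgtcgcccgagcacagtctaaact
Hsc70-4: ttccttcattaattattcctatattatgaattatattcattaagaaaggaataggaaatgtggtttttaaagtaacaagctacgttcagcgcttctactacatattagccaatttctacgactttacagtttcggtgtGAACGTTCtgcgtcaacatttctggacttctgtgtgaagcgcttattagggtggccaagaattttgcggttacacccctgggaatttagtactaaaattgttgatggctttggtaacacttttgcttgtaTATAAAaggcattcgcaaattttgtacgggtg
Hsp83 heat shock element pair: gaagcctctaGAAGTTTCtagagacttcca
Hsp83 TATA box: gtcgggtttttcTATAAAagcagacgcgcg

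Only peak lists were used, and they carry no read counts: the depth is unknown and no counting interval can be given. Each replicate had a list of 30000 rows of peaks and background regions, the pooled list made from both alignments held 26275 rows, and the optimal list, kept by the authors at a threshold of reproducibility, held 3970 rows that were identical to the 3970 strongest of the pooled list. The signal, column 7 of each list, is the authors' own value for each peak. It served here to rank rows within 1 list, and signals of different lists were not set against each other as a change. Within 250 bp, 3915 of the optimal rows, or 98.6%, had a row in both replicate lists, and the larger of the 2 replicate ranks was a median of 1.56 times the smaller.

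Of the 9 genes, 4 had a row in the optimal list: Hsp27, Hsp83, Hsp26 and Hsc70-4. By the same rule 27.4% of all protein-coding genes had one, and 25.1% of the 8542 protein-coding genes whose span of 884 to 5422 bp matched that of the members, so a count of 4 in 9 is too small to set the members apart from other genes. All 4 had their strongest summit within 500 bp of an annotated start of their own. Counted there, it was again 4 of 9 members, beside 2608 of 13968 protein-coding genes, or 18.7%. Those 2608 are most of the 3827 protein-coding genes with an optimal summit in the gene or within 1 kb. A summit near a start is therefore common among genes with an optimal summit. The strongest signal had a median of 241 over these 4 genes, beside 157 over the 3827 protein-coding genes with an optimal summit. The other 5 genes, Hsp22, Hsp67Bc, Hsp23, Hsc70-3 and Hsp68, had none.

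Weak rows were common everywhere. In the pooled list 8 of the 9 genes had at least 1 row, as did 70.5% of protein-coding genes. In replicate 2 the count was 8 of 9 beside 73.9% of protein-coding genes, and in replicate 3 it was 9 of 9 beside 71.5%. A row of these longer lists is therefore not by itself a mark of the heat shock genes. Among the 3970 strongest rows of each replicate, 4 members had a row in replicate 2, where 27.5% of protein-coding genes had one, and 6 in replicate 3, where 27.3% had one. The members gained in replicate 3 were Hsp22 and Hsp68, the latter through a row 28 bp from the start of the neighbouring gene SMC1.

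**Figure D1:**
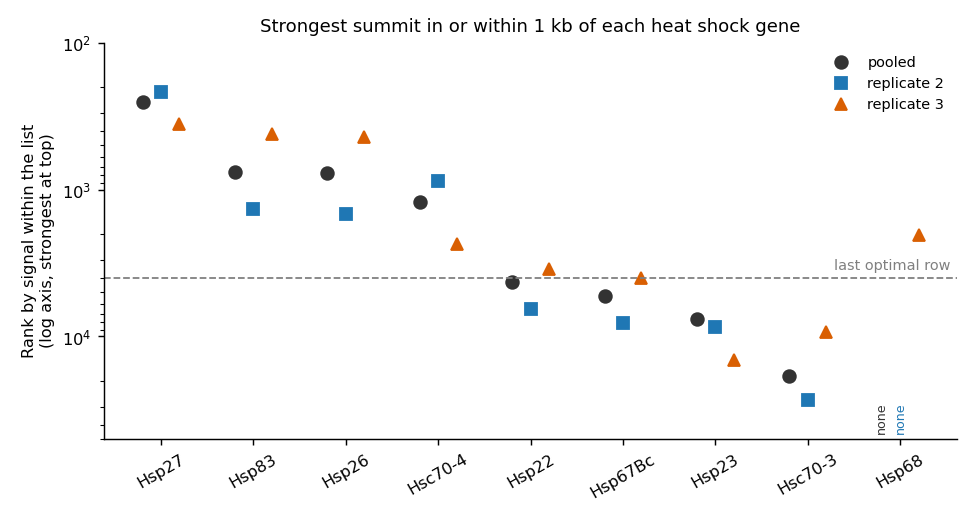
Rank by signal (log axis, strongest at the top) of the strongest row at each of the 9 genes in the pooled list (circles), in replicate 2 (squares) and in replicate 3 (triangles); the dashed line marks the rank of the last optimal row, 3970. Hsp27, Hsp83, Hsp26 and Hsc70-4 lie above the line in all 3 lists, while Hsp68 has a row in replicate 3 and none in the other lists.

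Among the small heat shock genes, Hsp27 had the strongest summit of all 9 genes. Hsp27 (FBgn0001226, 3L 9384063 to 9385694, plus strand) encodes a small heat shock protein that also enters the nucleus. Its summit lay at 9383926, in intergenic DNA 137 bp upstream of its start, with a pooled signal of 409.8 and rank 253. In replicate 2 the signal was 263 at rank 216, and in replicate 3 it was 149.9 at rank 358. The ranks differed by a factor of 1.66 between the replicates, close to the median of 1.56 over all matched optimal rows. The peak was 307 bp wide in the pooled list, where the commonest width was 404 bp, and 20% of optimal rows were as narrow. No start of another gene lay within 1 kb. The optimal rows next to it in signal were nearest to starts of CG12316 and mrt.

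Hsp26 (FBgn0001225, 3L 9376418 to 9377427, minus strand) had the other optimal summit among the small heat shock genes. The summit at 9377517 was intergenic, 90 bp upstream of the outer annotated start at 9377427 and 142 bp upstream of the inner start at 9377375. Its pooled signal was 239 at rank 773. It ranked 1462 in replicate 2, with a signal of 95.3, and 438 in replicate 3, with a signal of 135. The ranks differed by a factor of 3.34, and 10.6% of the matched optimal rows differed by as much or more. The nearest start of another gene within 1 kb was that of asRNA:CR43481, 643 bp away. Hsp26 had 3 further pooled rows, all weaker: 44.9 in its coding exon at 9376891, 39.9 at 9377719 and 30.7 at 9378309, in a coding exon of the neighbouring small heat shock gene Hsp67Ba. In signal the optimal summit stood between rows nearest to starts of Eip63E and Mnt.

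Hsp22, Hsp67Bc and Hsp23 fell below the optimal list, whose last row had a signal of 80.35, while the first pooled row outside had 80.33. Hsp22 (FBgn0001223, 3L 9372931 to 9374964, plus strand), a mitochondrial small heat shock protein, came closest, with a pooled signal of 75.7 at rank 4274. That summit, at 9373600, lay 397 bp upstream of the inner annotated start at 9373997, in a stretch annotated both as 5' UTR of Hsp22 and as 3' UTR of the overlapping gene CG4456. It ranked 6494 in replicate 2, with a signal of 30.01, and 3467 in replicate 3, with a signal of 42.7. The other 3 pooled rows at Hsp22 had signals of 28.7 to 35.5, and the nearest other starts to them were those of Hsp67Bc and CG4461.

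Hsp67Bc (FBgn0001229, 3L 9371511 to 9372497, minus strand), a small heat shock protein with a role in autophagy, had a pooled row of signal 63.8 at rank 5288. That summit lay 432 bp outside the gene and 1418 bp from its start. It was in an intron of Fdx1, which encodes a mitochondrial ferredoxin, and 21 bp from a start of Fdx1. By distance it belongs to Fdx1 rather than to Hsp67Bc. The row ranked 8119 in replicate 2 and 3984 in replicate 3. In the coding exon of Hsp67Bc itself the pooled signal was 28.9 at rank 17560, a row that also lay within 1 kb of Hsp22. Hsp23 (FBgn0001224, 3L 9381882 to 9382765, plus strand), a cytosolic small heat shock protein, had no optimal row and 1 row in each of the pooled and replicate lists, all in its coding exon. The pooled summit lay 358 bp past its start. Its pooled signal was 48.1 at rank 7565, and it ranked 8560 in replicate 2 and 14522 in replicate 3.

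All 5 small heat shock genes lie in the cluster at cytological position 67B, a span of 14184 bp on 3L with 9 annotated genes. Within it and 1 kb on either side there were 2 optimal rows, 11 pooled rows, 9 rows of replicate 2 and 10 of replicate 3. The 2 optimal summits, those of Hsp26 and Hsp27, were 6409 bp apart. Between them lay 3 pooled rows, with signals of 30.7, 39.9 and 48.1. The next strongest pooled rows lay to the left of Hsp26, with 75.7 in Hsp22 and 63.8 in an intron of Fdx1. The lists give summits and no coverage, so the spread of enrichment between summits cannot be read from them.

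**Figure D2:**
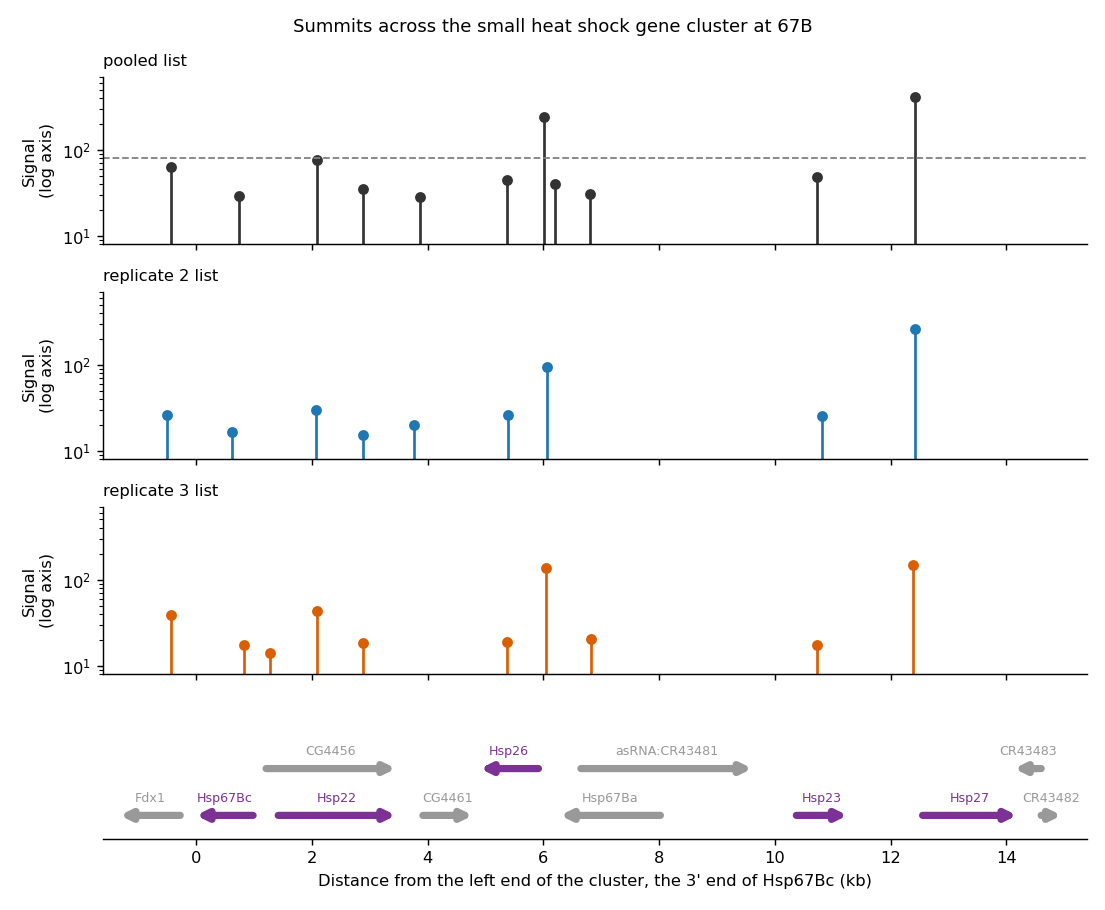
Signal (log axes) of each summit across the 67B cluster in the pooled list and in replicates 2 and 3, by distance in kb from the 3' end of Hsp67Bc; arrows show the annotated genes with their direction, the 5 heat shock genes described here in purple, and the dashed line is the lowest optimal signal. The summits ahead of Hsp26 and Hsp27 are the highest points in all 3 panels, and the summit in Hsp22 lies just under the line.

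Hsp83 (FBgn0001233, 3L 3192969 to 3197059, plus strand) was the only member with more than 1 optimal row. It had 3, and 303 of the 3827 protein-coding genes with an optimal summit, or 7.92%, had 3 or more. The strongest lay at 3193110, inside the annotated 5' UTR, 141 bp past the outer start and 106 bp upstream of the inner start at 3193216. Its pooled signal was 243 at rank 755. It ranked 1366 in replicate 2, with a signal of 99.6, and 417 in replicate 3, with a signal of 138, a factor of 3.28. Like the Hsp26 summit, it ranked higher in replicate 3. The peak was 159 bp wide in the pooled list, and 6.25% of optimal rows were as narrow. It was 153 bp wide in replicate 3 and 396 bp, the commonest width, in replicate 2. The start of CG14965 on the other strand was 619 bp away, and the rows next in signal were nearest to starts of lncRNA:CR44667 and cold.

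The other 2 optimal rows at Hsp83 were weaker. The summit at 3194282 lay in an intron, 1066 bp past the inner start, with a pooled signal of 127 at rank 2133. It ranked 2459 in replicate 2, with a signal of 65.3, and 2153 in replicate 3, with a signal of 57.1, which is nearly the same place in both. The third, at 3197680, lay 621 bp past the end of Hsp83 and 49 bp upstream of the start of CG14966, with a pooled signal of 116 at rank 2460. It ranked 2387 in replicate 2 and 3215 in replicate 3, and by distance it belongs to CG14966 rather than to Hsp83. Inside Hsp83, then, 2 optimal rows remain, the promoter and the intron.

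Hsc70-4 (FBgn0266599, 3R 15242687 to 15246614, plus strand), the main cytosolic Hsc70, made without stress, had 1 optimal row. Its summit at 15242541 was intergenic, 146 bp upstream of the outermost of 6 annotated starts, with a pooled signal of 185 at rank 1210. It ranked 880 in replicate 2, with a signal of 132, and 2332 in replicate 3, with a signal of 54.4. The ranks differed by a factor of 2.65, here with the higher rank in replicate 2, the reverse of Hsp26 and Hsp83. The start of tefu, which encodes the fly ATM kinase, lay 305 bp away on the other strand, so the summit lies between divergent starts. Its neighbours in signal were nearest to starts of CG3071 and CG12241. The other 3 pooled rows, in an intron and in coding exons, had signals of 26.7 to 46.1.

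**Figure D3:**
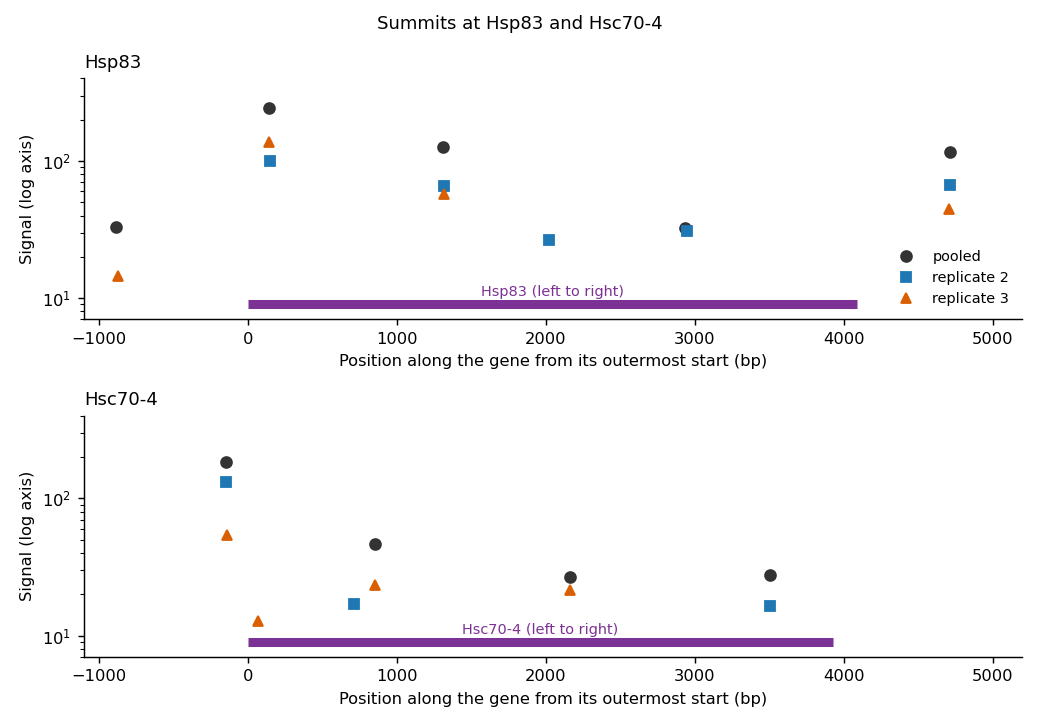
Signal (log axes) of each summit at Hsp83 and Hsc70-4 in the pooled list (circles), replicate 2 (squares) and replicate 3 (triangles), by position in bp along the gene from its outermost annotated start; the purple bar is the gene. At both genes the highest point of every list is at the promoter, and Hsp83 has further optimal rows in an intron and past its end.

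Hsc70-3 and Hsp68 carried the weakest pooled evidence. Hsc70-3 (FBgn0001218, X 11801696 to 11807117, minus strand) encodes BiP, the Hsp70 of the endoplasmic reticulum. Its pooled rows had signals of 28.2 at rank 18488 and 25.3 at rank 22600, both in introns. In replicate 3 its strongest of 6 rows had a signal of 22.4 at rank 9260, 43 bp inside the outermost start, and the 1 row of replicate 2 had 14.5 at rank 26973. None of these is near the optimal list.

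Hsp68 (FBgn0001230, 3R 24055080 to 24057310, minus strand), a heat-inducible Hsp70 away from the main Hsp70 loci, had no row in the pooled list or in replicate 2. The pooled summits on either side of it were 16017 bp apart, and 4.94% of the gaps between neighbouring pooled summits were as wide. In replicate 2 the gap was 16083 bp, and 3.18% of gaps were as wide. Any gene of this span without a row within 1 kb lies in a gap wider than the medians of 2325 bp (pooled) and 2486 bp (replicate 2). These shares of gaps therefore do not set Hsp68 apart from other genes without a row. Replicate 3 alone had 4 rows there. The strongest, with a signal of 59.1 at rank 2029, lay 949 bp upstream of Hsp68 and 28 bp from the start of SMC1, a cohesin subunit gene. The row inside the gene, in the coding exon, had a signal of 14.7 at rank 19213. The high rank of Hsp68 in replicate 3 thus belongs, by distance, to the start of SMC1.

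Over the 6 optimal rows of the members, 3 ranked higher in replicate 2 (Hsp27, Hsc70-4 and the row past Hsp83) and 3 in replicate 3 (Hsp26, the Hsp83 promoter and the Hsp83 intron). The members therefore did not move together between the libraries. The factors between replicate ranks ran from 1.14 at the Hsp83 intron to 3.34 at Hsp26, all below the 90th percentile of 3.41 over matched optimal rows.

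**Figure D4:**
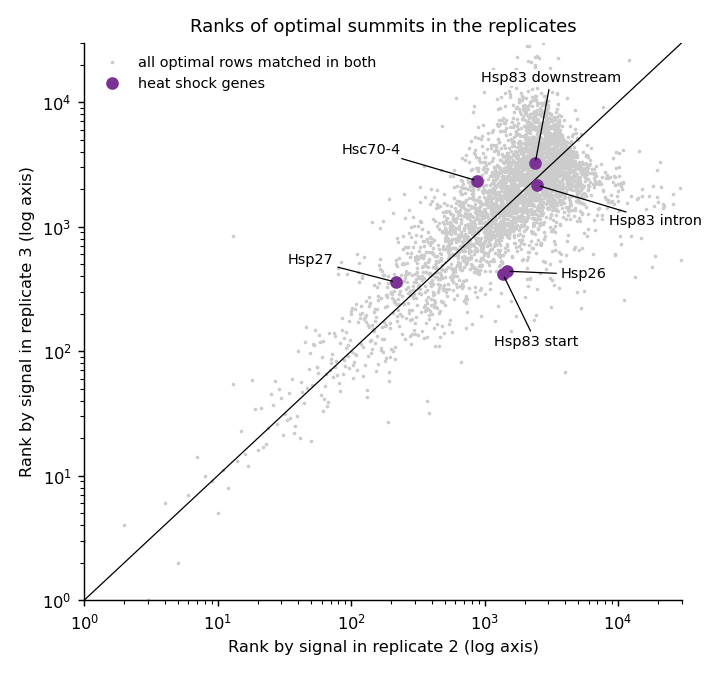
Rank by signal in replicate 2 against rank in replicate 3 (log axes) for the 3915 optimal rows matched in both (grey) and for the 6 optimal rows at heat shock genes (purple); the line marks equal ranks. Hsp26 and the Hsp83 start lie together below the line, with the higher rank in replicate 3, and Hsc70-4 lies above it.

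The 300 bp windows at the 6 optimal summits were searched on both strands for 8 motifs, and each is given beside its share of all 3970 optimal windows and of the promoter windows of all 13968 protein-coding genes, of the same length. A match is a description of the letters and not evidence of binding. The heat shock element pair occurred in 4 of the 6 windows, those of Hsp26, Hsc70-4, the Hsp83 promoter and the Hsp83 intron, beside 14.9% of optimal windows and 15.9% of promoters. Hsp26 had 3 of them, which 0.126% of optimal windows and 0.186% of promoters reached. The pair of Hsc70-4, GAACGTTC, was centred 7.5 bp from the summit, and that of the Hsp83 promoter, GAAGTTTC, 64.5 bp upstream of the inner start. Of the Hsp26 pairs, TTCTAGAA lay furthest downstream. It was centred 45.5 bp upstream of the inner start and 6.5 bp past the outer start, inside the annotated gene. The window of Hsp27, the strongest of the 6, held no such pair. The windows at the strongest pooled summits of Hsp22 and Hsp23, below the optimal list and also searched, held none either. The heat shock element triplet, 3 units in a row with no mismatch, was in 0 of the 6 windows, and 0.479% of optimal windows and 0.430% of promoters had it.

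GAGA elements (GAGAG) were dense at Hsp26, with 6 overlapping or neighbouring matches in the 300 bp window, a number reached in 1.36% of optimal windows and 2.03% of promoters. Hsp27 had 1, and the other 4 windows had none, beside 34.6% of optimal windows and 29.7% of promoters with at least 1. The window at the Hsp22 summit, below the optimal list, held 8, which 0.554% of optimal windows and 1.20% of promoters reached. The window at the pooled Hsp23 summit, also below that list and also searched, held 0. The Pumilio response element written as DNA (TGTANATA) matched in the Hsc70-4 window alone, as TGTATATA, where it overlaps the TATA box, beside 13.0% of optimal windows and 10.9% of promoters. The motif TATCGATA, known as the DRE, the core ATCGAT that it contains, and the core of Ohler motif 1, GGTCACAC, were in 0 of the 6 windows, beside 6.12%, 16.1% and 3.98% of optimal windows and 9.36%, 23.3% and 7.69% of promoters.

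A feature shared by nearly all 9 genes is the TATA box. TATAAA was in the 4 promoter windows and in 40.8% of optimal windows and 45.8% of promoters when counted anywhere on either strand. Counted only where its middle lay 20 to 40 bp upstream of an annotated start on the coding strand, a rule chosen after the values were seen, it was present in 8 of the 9 members, Hsc70-3 being the exception. By that rule 9.42% of all protein-coding genes had it, and 3.80% of the 2608 protein-coding genes with an optimal summit within 500 bp of a start. At the 4 members with an optimal summit its middle lay 24.5 to 27.5 bp upstream of a start, and the summit lay 106 to 146 bp upstream of that same start. Of the other 5 members 4 had the TATA box too, so its presence does not divide the members with an optimal summit from those without. The GC content of the 6 windows ran from 33.7% to 45.7%, beside medians of 37.7% over optimal windows and 38% over promoters.

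For the rest of the chaperone system, 47 of 48 names on a list of heat shock and chaperone genes were found in the annotation, 2 of them through synonyms. An optimal summit was present at 15 of them, or 31.9%, beside the 27.4% of all protein-coding genes. The median strongest signal was 116, below the 157 over all protein-coding genes with an optimal summit. The 15 include lncRNA:Hsromega, a noncoding RNA gene. The heat-inducible Hsp70 copies had 0 of 6, but these copies are nearly identical, and reads from them may not be placed uniquely, so that count is uncertain. The other small heat shock genes had 1 of 7, and that was Hsp67Ba, which lies within 1 kb of the Hsp26 summit already described. Neither the inducible Hsp70 genes nor the further small heat shock genes added an optimal row of their own.

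J-domain proteins, which deliver clients to Hsp70, had 4 of 7. They were mrj, with a signal of 528 at rank 137 in one of its introns, P58IPK with 177, CG5001 with 162 and Droj2 with 93.7, whose summit was 128 bp from a start of mRpS21 and 169 bp from its own. The summit of mrj was the strongest among the 47 chaperone genes, and its signal was also above that of Hsp27. Cochaperones had 3 of 7. Stip1, the adaptor between Hsp70 and Hsp90, had a signal of 393, but that summit was 2 bp from a start of Pi3K21B and 2760 bp from its own. The BAG-domain gene stv had 116, and STUB1, a ubiquitin ligase that works with chaperones, had 85.7. Of the 12 chaperonin genes 4 had an optimal summit, namely CCT8 with 116, CCT3 with 113, CCT7 with 92.2 and CCT5 with 91.1. The CCT8 summit lay in the 5' UTR of CG30349, 21 bp from that gene's start and 549 bp from its own, and the CCT3 summit was 169 bp from a start of CG10324 and 432 bp from its own. The mitochondrial Hsp70 gene Hsc70-5 had 226, 36 bp from its start. The mitochondrial Hsp90 gene Trap1 had 164, at a summit 133 bp from a start of Vha16-1 and 2864 bp from its own. The heat-inducible noncoding RNA gene lncRNA:Hsromega had 91.8, and Hsf, the heat shock factor gene, had no optimal row and 4 pooled rows. These signals are pooled, and the replicates did not always place a row alike. Trap1 ranked 837 in replicate 2 and 9355 in replicate 3, Stip1 143 and 1090, and P58IPK 833 and 3879. CCT8 ranked 1767 and 6110, Droj2 2392 and 7470, and lncRNA:Hsromega 5502 and 1505. Ranks were closer at other rows, such as mrj with 197 and 104 and Hsc70-5 with 772 and 987.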

How the data were processed

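ChIP-seq peak lists on dm6 were used, 1 per replicate, 1 pooled and 1 optimal. Per the README deposited by the authors, each list was derived from the alignments and 1 further file, and the optimal list from the other lists by a reproducibility threshold; the peak caller, its settings, that threshold and the aligner are each not given in the sources used here. The authors deposited a signal for each peak and a −log10 of its q-value; 97.5% of the optimal rows shared the highest −log10 value, so rows were ranked by signal. The dm3 lists were not used. Gene models came from Ensembl release 115; 30565 of 30618 annotated start codons read ATG in the RefSeq sequence, and 0 rows ran past a chromosome end. Summits were assigned to a gene within 1 kb and matched between lists within 250 bp. Promoter windows ran from 250 bp before to 50 bp after a gene's outermost start.

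The members and lists were chosen with earlier results of these data known. Genes named are the members, genes with a start within 1 kb of a member's optimal summit or nearest to its other summits, chaperone genes with an optimal summit, and those nearest to the rows next in signal. Alternatives numbered 27, and 2 more, together with the TATA box count by position, were added after seeing the data. Counting and motif code was tested on simulated data. Python 3.11.15 was used with numpy 2.4.6, pandas 2.3.3 and matplotlib 3.10.9.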

Additional observations from a re-analysis of the deposited data

How the results depend on the processing

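The 4 members with an optimal row were the same with 500 bp around the gene (24.7% of protein-coding genes), with 500 bp (18.7%) or 250 bp (14.9%) around a start, with close summits dropped (27.4%), with the stronger 50% of the rows (16.6%) and with replicate 2 alone (27.5%). Hsp23 joined them with 2 kb (32.9%) or with the overlap of the peak interval (28.4%). In both cases the row it gained was the promoter peak of Hsp27, already counted at that gene, and not a further peak. Leaving out a replicate gave 4 to 6 members, since Hsp22 and Hsp68 joined in replicate 3 (27.3%). The row that Hsp68 gained lay 949 bp from it and 28 bp from the start of SMC1. With the gene body only, 1 member remained (Hsp83, beside 10.4%) and 4 of the other chaperone genes; with all rows of the pooled list, 8 members had a row (70.5%). The median rank of the strongest summits was 764 over 4 members, 2742 over the 8 with any pooled row, 1123 over 4 without replicate 3 and 1233.5 over 6 without replicate 2. Over the same 4 members it was 764 with all pooled rows, 1123 without replicate 3 and 427.5 without replicate 2. In 200 bp windows the heat shock element pair was in 3 of the 6, beside 11.3% of all optimal windows of that length. It was lost at the Hsp83 intron, whose pair lay 144.5 bp from the summit. GAGA was in 1 of the 6 smaller windows (22.6% of optimal windows), the TATA box in 2 (31.4%) and the Pumilio element in 0 (9.17%). No paired analysis was possible because both libraries belong to 1 group. Depth is unknown, 2 libraries allow no test, and whether enrichment at these promoters would be seen without the tagged protein was not tested.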
